A study of Mus musculus with 12 samples.

Results

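The miR-17, miR-18, miR-19 and miR-20 miRNAs of the miR-17-92, miR-106b-25 and miR-106a-363 clusters were examined in blood extracellular vesicles (bEVs). The members were the 10 rows of the deposited table with the names mmu-miR-17-5p, mmu-miR-18a-5p, mmu-miR-19a-3p, mmu-miR-20a-5p, mmu-miR-19b-3p, mmu-miR-106b-5p, mmu-miR-93-5p, mmu-miR-106a-5p, mmu-miR-20b-5p and mmu-miR-363-3p (without the prefix from here on), out of 1995 rows in all. miR-25 and miR-92a, which lie in the same clusters, were left out by this choice and served as relatives. Small RNAs were sequenced from serum bEVs of Rag1-/- mice, 6 after intravenous transfer of 10000000 WT T cells (the T cell group) and 6 after an injection of medium, which the labels call vehicle (the medium group). Both groups carry the same Rag1 deletion on a C57BL/6 background and so lack mature T and B cells of their own. The methods give male mice of 8 to 12 weeks as the general rule, donor T cells from spleen and bEVs from ultracentrifugation of serum cleared of platelets by a short spin. The labels number the libraries but do not say that each came from its own mouse. The paper's figure legend for this comparison counts mice, as many in each group as there are libraries. Each library was therefore taken as a separate mouse, and p-values measure the spread between libraries on that reading.

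The 3 clusters are paralogs that arose by duplication. Each is transcribed as 1 long primary RNA from which several hairpins are cut, and each hairpin can give a 5p and a 3p mature strand. miR-17-92, also known as Oncomir-1, is induced by Myc, and in lymphocytes it promotes proliferation and survival in part by repressing the pro-apoptotic gene Bim. miR-106b-25 is carried within Mcm7, which encodes a subunit of the replicative helicase and is transcribed in dividing cells. miR-106a-363 is expressed weakly in most adult tissues. A miRNA recognizes its targets chiefly through bases 2 to 8, the seed, so that members with 1 seed share many predicted targets.

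The mature sequences, from RefSeq on GRCm38.p6, are shown because the seed sets the groups compared here and because some members differ by only 1 base. All 10 names matched. Each sequence is written 5′ to 3′ with the seed in capitals, and the first 6 share the seed AAAGUGC:
miR-17-5p: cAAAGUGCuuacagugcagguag
miR-20a-5p: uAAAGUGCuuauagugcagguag
miR-106a-5p: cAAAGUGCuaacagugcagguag
miR-20b-5p: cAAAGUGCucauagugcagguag
miR-93-5p: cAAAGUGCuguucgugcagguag
miR-106b-5p: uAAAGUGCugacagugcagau
miR-18a-5p: uAAGGUGCaucuagugcagauag
miR-19a-3p: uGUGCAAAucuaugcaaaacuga
miR-19b-3p: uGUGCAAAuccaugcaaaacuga
miR-363-3p: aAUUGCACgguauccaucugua

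Counted from the 5′ end, miR-106a-5p differed from miR-17-5p by 1 substitution in 23 bases (U10A), miR-20a-5p by 2 (C1U and C12U), miR-20b-5p by 2 (U10C and C12U) and miR-93-5p by 4 (U10G, A11U, C12U and A13C). miR-106b-5p differed from miR-17-5p by 3 in the 21 bases that it has (C1U, U10G and G20A). Against miR-17-5p, the seed of miR-18a-5p carried 1 change (A4G). miR-19a-3p and miR-19b-3p differed by 1 base (U11C), outside the seed. miR-363-3p, the last hairpin of its cluster, carried the seed AUUGCAC of miR-25-3p and miR-92a-3p. Counts of the closest pairs, miR-17-5p with miR-106a-5p and miR-19a-3p with miR-19b-3p, rest on the assignment of reads that differ at 1 base and are uncertain to that extent.

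On GRCm38, the 6 hairpins of miR-17-92 lie within 836 bases of the plus strand of chromosome 14 (chr14:115043671-115044506), in an exon of the noncoding host gene Mir17hg (chr14:115042879-115046727). The 3 hairpins of miR-106b-25 span 498 bases of the minus strand of chromosome 5 (chr5:138165321-138165818) inside Mcm7 (chr5:138164583-138172422). Mir106b is intronic in both annotated Mcm7 transcripts that span it, and Mir93 and Mir25 are intronic in 2 and exonic in 1 of the 3 that span them. The 6 hairpins of miR-106a-363 lie in 875 bases of the minus strand of the X chromosome (chrX:52741693-52742567), and no annotated gene among those examined spans them. The noncoding gene Kis2 (chrX:52742563-52744960), on the same strand, lies directly upstream and overlaps the start of Mir106a. miR-19b-3p can come from Mir19b-1 on chromosome 14 or from Mir19b-2 on the X chromosome, and its counts cannot be divided between them.

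The libraries held 48997 to 130106 counts, and the median feature had 15 to 30 counts per library. T cell replicate 2 and medium replicate 3 contained no count from 1 to 9, so that a 0 in them says only that a feature had fewer than 10. The T cell libraries had scaling factors (trimmed mean of M-values, TMM) of 0.668 to 1.18 and the medium libraries of 0.974 to 1.32. Levels are given as counts per 1000000 after this scaling (CPM). Less RNA of a kind per vesicle and fewer vesicles carrying it cannot be told apart in such pooled bEVs.

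Among the members, miR-93-5p was by far the most abundant. It averaged 4439 ± 3581 CPM (SD, n = 12 libraries), ranked 23rd of all 1995 features by mean level and stayed at percentile 94.6 or above in every library. miR-106b-5p followed with 1034 ± 348 CPM and miR-18a-5p with 734 ± 172 CPM. miR-19b-3p (464 ± 137 CPM), miR-17-5p (437 ± 161 CPM) and miR-20a-5p (420 ± 192 CPM) formed a middle level, and miR-19a-3p (210 ± 115 CPM) and miR-20b-5p (203 ± 71.7 CPM) a lower one (SD, n = 12 each). miR-106a-5p (62.5 ± 61.2 CPM) and miR-363-3p (54.3 ± 76.2 CPM) came last. Counts were assigned by sequence and all members are of nearly equal length, but strands can differ in how well they are ligated into a library, which was not tested here.

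Several neighbors in this order did not differ beyond their spread. miR-93-5p exceeded miR-106b-5p in 11 of 12 libraries, and miR-106b-5p exceeded miR-18a-5p in 9 of 12. miR-19b-3p exceeded miR-17-5p in 7 of 12 libraries, miR-17-5p exceeded miR-20a-5p in 6 of 12, and miR-19a-3p exceeded miR-20b-5p in 5 of 12, so that these were not ordered. The step from miR-20a-5p down to miR-19a-3p was present in 10 of 12 libraries. The 10 members together made up 0.482% to 1.18% of the counts of a library, with a median of 0.702%.

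**Figure D1:**
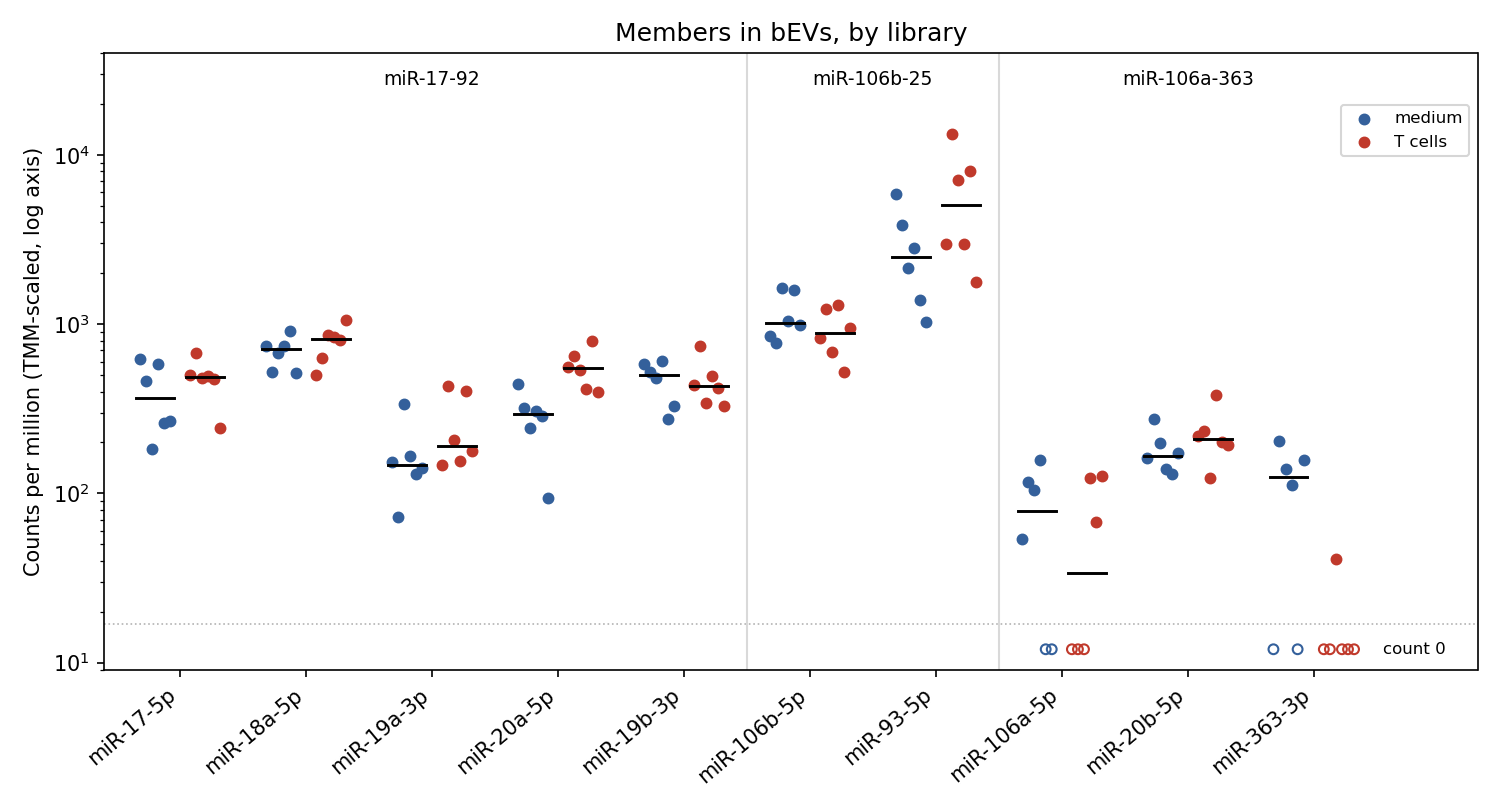
Level of each member in each library, in TMM-scaled CPM on a log axis, for the medium group (blue) and the T cell group (red), 6 libraries each, with black bars at group medians above 0 and open circles for a count of 0. miR-93-5p lies above the other members and reaches 13324 CPM in 1 T cell library, while miR-20a-5p has the least overlap between the groups among the members detected in all libraries.

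The question of the comparison was which bEV miRNAs differ after T cell transfer. With edgeR's quasi-likelihood test, adjusted over the 1720 features that passed its filter on low counts, 0 members passed the threshold of 0.05, and 0 features did so in all (0.00% called, with 120 at an unadjusted p under 0.05). Of the 10 members, 8 passed that filter and were tested, and miR-106a-5p and miR-363-3p did not. An unadjusted p under 0.05 with a higher level after T cell transfer was found for 2 of the 8, miR-20a-5p and miR-93-5p, against 5.06% of all tested features, and a lower level for 0 of the 8, against 1.92% of all. DESeq2, which the study's methods name, called 1 member higher, miR-20a-5p, among the 6 members to which it gave an adjusted p, against 40 of the 561 features with one (7.13%). The median log2 fold change of the 8 members was 0.29, and that of all tested features was -0.05. A positive fold change was found for 6 of the 8 members and for 45.2% of all tested features. This background was not matched for abundance. Among the 85 features outside the clusters with a mean count of at least 100, log2 fold changes ran from -0.87 (miR-1188-5p) to 1.62 (miR-191-5p). Values near 1 were thus not particular to the members.

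miR-20a-5p, a miR-17 seed member of the miR-17-92 cluster, was the member with the clearest separation. It was at 396 CPM in the lowest, 548 CPM in the median and 792 CPM in the highest T cell library, and at 94.1, 296 and 441 CPM in the medium libraries. All 6 T cell libraries lay above the medium median, and 4 of them lay above every medium library. Only medium replicate 1 reached into the T cell range. The means were 558 ± 149 CPM and 282 ± 113 CPM (SD, n = 6 per group). In edgeR this gave 0.96 on the log2 scale with an SE of 0.30 (adjusted p = 0.338, unadjusted 0.00507). DESeq2 gave 0.94 with an SE of 0.28 and an adjusted p = 0.0257. These levels rest on 39 to 56 counts per T cell library and 6 to 49 per medium library.

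The DESeq2 call depended on its filters and on single libraries. Without independent filtering and the Cook's distance cutoff the DESeq2 adjusted p of miR-20a-5p was 0.0800, and without both T cell replicate 2 and medium replicate 3 it was 0.183. With 1 library left out in turn, DESeq2 called it in 7 of 12 fits (adjusted p from 0.00792 to 0.0479). In the other 5 fits, which left out 1 of T cell replicates 2, 3 and 5 or of medium replicates 5 and 6, its mean count fell under the filter and it had no adjusted p (unadjusted DESeq2 p from 0.00186 to 0.00526). The edgeR fold change stayed between 0.80 and 1.13 on the log2 scale in those 12 fits.

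miR-93-5p, the abundant miR-17 seed member of the Mcm7 cluster, had the largest fold change of the tested members and also a wide spread. It was at 1780, 5025 and 13324 CPM in the lowest, median and highest T cell library and at 1035, 2483 and 5899 CPM in the medium libraries. The groups overlapped broadly, with 3 T cell libraries above every medium library. Means were 6018 ± 4356 CPM and 2860 ± 1805 CPM (SD, n = 6 per group). The edgeR log2 fold change was 1.07 with an SE of 0.49 (adjusted p = 0.673, unadjusted 0.0406). DESeq2 gave an adjusted p = 0.153, which fell to 0.0476 without T cell replicate 6. Without T cell replicate 2, which held the highest level, the edgeR log2 fold change was 0.66 (adjusted p = 0.905), and without both that library and medium replicate 3 it was 0.59 (edgeR adjusted p = 0.952).

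The other tested members of the miR-17 seed group did not pass the edgeR test, and DESeq2 called none of them (miR-20b-5p had no DESeq2 adjusted p). miR-17-5p, after which the family is named, was at 245, 488 and 674 CPM in the lowest, median and highest T cell library and at 182, 366 and 621 CPM in the medium libraries, which overlap over nearly their whole range. Its log2 fold change was 0.25 with an SE of 0.32 (edgeR adjusted p = 0.990), and -0.04 without both T cell replicate 2 and medium replicate 3. miR-20b-5p, the X-chromosomal paralog of miR-20a-5p, was at 124, 211 and 382 CPM against 131, 167 and 276 CPM. Its log2 fold change was 0.33 with an SE of 0.38 (edgeR adjusted p = 0.990). miR-106b-5p was the only tested member besides miR-19b-3p with a negative value, at 522, 891 and 1299 CPM in the T cell libraries and 769, 1014 and 1641 CPM in the medium libraries. This was a log2 fold change of -0.31 with an SE of 0.27 (edgeR adjusted p = 0.990).

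The miR-18 and miR-19 members showed small differences. miR-18a-5p, whose maturation in human cells is aided by the RNA-binding protein hnRNP A1, was at 500, 822 and 1054 CPM in the lowest, median and highest T cell library and 518, 710 and 906 CPM in the medium libraries (log2 fold change 0.19, SE 0.23, edgeR adjusted p = 0.990). miR-19a-3p, which together with miR-19b-3p carries much of the oncogenic activity of the cluster in mouse lymphoma, was at 146, 192 and 430 CPM against 72.6, 147 and 339 CPM. Its log2 fold change was 0.56 with an SE of 0.43 (edgeR adjusted p = 0.990), and the T cell libraries with the 2 highest levels, replicates 2 and 5, lay apart from the other 4. miR-19b-3p was at 329, 430 and 744 CPM in the T cell libraries and 274, 500 and 603 CPM in the medium libraries. Its log2 fold change was -0.02 with an SE of 0.27 (edgeR adjusted p = 0.992).

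The 2 members that failed edgeR's filter were close to or below detection. miR-106a-5p had 0, 0, 0, 12, 4 and 15 counts in T cell replicates 1 to 6 and 6, 8, 12, 17, 0 and 0 counts in medium replicates 1 to 6. A count of 0 allows up to 3 counts in an ordinary library, or 36.6 CPM in T cell replicate 1, and anything under 10 counts in T cell replicate 2. miR-363-3p had 0, 0, 3, 0, 0 and 0 counts with T cells and 0, 14, 16, 12, 0 and 10 counts with medium, so that 4 medium libraries lay above all T cell libraries. Summed over each group this was 3 of 588038 counts against 52 of 501849, a ratio of 0.0492 with an exact (Clopper-Pearson) 95% interval of 0.00984 to 0.152 that covers counting error only. DESeq2 gave miR-363-3p an unadjusted p = 0.0417 and no adjusted p. The nonzero medium counts of miR-363-3p ran from 10 to 16. Most libraries show a jump in the number of features at 10, and the part of this jump in the difference was not tested.

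**Figure D2:**
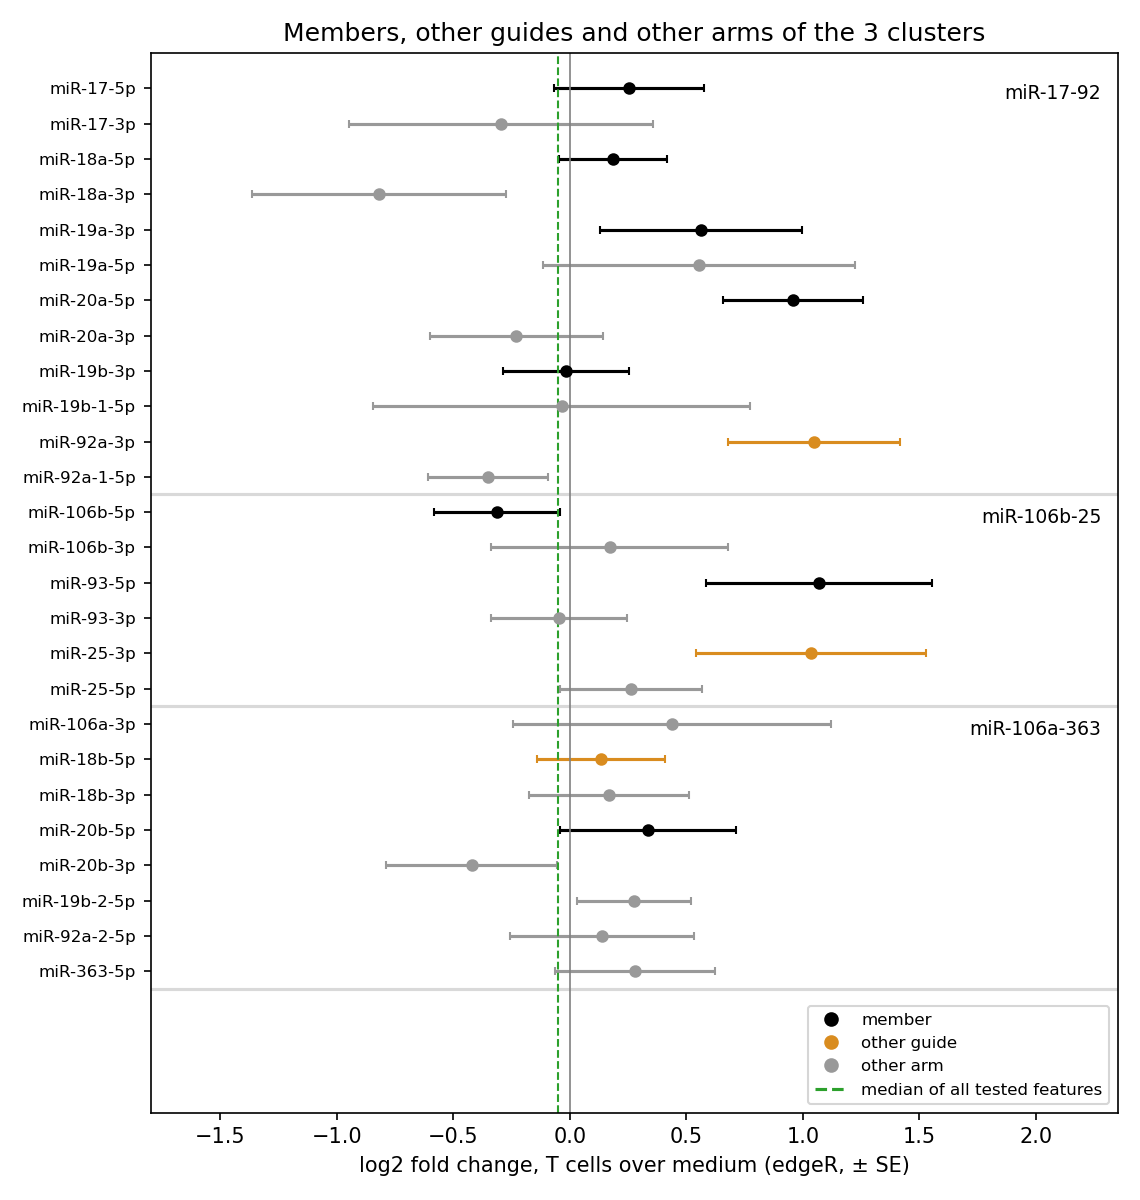
Fold change of the 8 tested members (black), the 3 other guides (orange) and the 15 other arms (gray) of the 3 clusters, as log2 of T cells over medium from edgeR with standard errors, by cluster. Values near 1 belong to miR-20a-5p, miR-93-5p, miR-25-3p and miR-92a-3p, and the other members and arms lie between -0.82 and 0.56.

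The relatives in the same primary transcripts carried the most abundant strands. miR-25-3p, from the Mcm7 cluster, averaged 8035 ± 6148 CPM after T cell transfer and 3916 ± 2485 CPM after medium (SD, n = 6 per group), with a log2 fold change of 1.04 and an SE of 0.49 (edgeR adjusted p = 0.711). miR-92a-3p, which is cut from both miR-17-92 and miR-106a-363, averaged 6347 ± 3125 CPM and 3070 ± 1371 CPM (SD, n = 6 per group), with a log2 fold change of 1.05 and an SE of 0.37 (edgeR adjusted p = 0.370, DESeq2 adjusted p = 0.0535). miR-18b-5p, which shares the seed of miR-18a-5p, had a log2 fold change of 0.13 with an SE of 0.27 (edgeR adjusted p = 0.990). Of the 15 other arms, all were tested, 0 had an unadjusted p under 0.05 in edgeR, and the median log2 fold change was 0.14. The 4 of highest mean count were miR-93-3p (-0.05, SE 0.29), miR-92a-1-5p (-0.35, SE 0.26), miR-19b-2-5p (0.27, SE 0.25) and miR-363-5p (0.28, SE 0.34).

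Summed by seed, the 6 miR-17 seed members were at 3694, 7294 and 16114 CPM in the lowest, median and highest T cell library and at 2557, 4782 and 8025 CPM in the medium libraries. The means, 8252 ± 4536 CPM and 4938 ± 1887 CPM (SD, n = 6 each), stood in a ratio of 1.67, and 3 T cell libraries exceeded every medium library. The ratio was 1.35 without T cell replicate 2, 1.25 with libraries scaled to total counts and 1.13 with the median ratio of abundant features. This sum was mostly miR-93-5p, which held a median of 57.1% of the miR-17 seed counts of a library. The share ran from 37.8% in medium replicate 5 (Wilson 95% interval 32.5% to 43.3%) to 82.7% in T cell replicate 2 (80.6% to 84.6%). With miR-93-5p taken out, a step chosen after the values were seen, the remaining 5 members summed to 2235 ± 413 CPM in the T cell group and 2078 ± 309 CPM in the medium group, a ratio of 1.08. The miR-19 seed members summed to 715 ± 251 CPM and 633 ± 169 CPM, a ratio of 1.13 (SD, n = 6 each). That ratio was 0.862 by total counts and 0.783 by abundant features.

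Summed by cluster, the 4 members particular to miR-17-92 reached 2071 ± 305 CPM in the T cell group and 1532 ± 333 CPM in the medium group. This was a ratio of 1.35, with 3 T cell libraries above every medium library. It was 1.06 by total counts and 0.944 by abundant features, with 1 and 0 such libraries. The 2 miR-106b-25 members were at 6938 ± 4378 CPM and 4007 ± 1610 CPM, a ratio of 1.73, which was 1.34 without T cell replicate 2 and 1.28 and 1.16 by total counts and abundant features. The 3 miR-106a-363 members were at 285 ± 120 CPM and 354 ± 166 CPM, a ratio of 0.806 (0.656 and 0.588 under those scalings), and 0 T cell libraries exceeded every medium library (SD, n = 6 each). miR-19b-3p was kept out of these sums because it has a source in 2 of the clusters. The sums were described without a test.

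Strands cut from the Mcm7 cluster did not keep to 1 ratio. Over the 55 pairs formed by the 8 members and 3 relatives without a 0, chosen after the values were seen, the steadiest within-library ratio was that of miR-93-5p to miR-25-3p, with an SD of 0.32 on the log2 scale over 12 libraries where counting alone would give 0.13. The least steady was that of miR-106b-5p to miR-93-5p, with an SD of 1.38 against 0.19 from counting. All 3 strands come from the same stretch of Mcm7. In the other clusters, miR-17-5p to miR-20a-5p had an SD of 0.63 against 0.38 from counting. For miR-20b-5p to miR-18b-5p, both of the miR-106a-363 cluster, the SD of 0.50 was close to the 0.44 from counting. The log2 ratio of miR-106b-5p to miR-93-5p ran from -3.89 to 0.21. miR-93-5p was steadier against miR-92a-3p, which comes from other chromosomes (SD 0.44), and the median SD over the pairs was 0.75.

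4 ratios of members within a library, which do not depend on the scaling between libraries, were compared between the groups by two-sided exact permutation tests over 924 arrangements, with 1 count added and p-values adjusted over the 4. miR-20a-5p to miR-17-5p averaged 0.24 ± 0.39 on the log2 scale in the T cell group and -0.46 ± 0.65 in the medium group (SD, n = 6 per group), a difference of 0.70 (exact p = 0.0498, adjusted 0.199). miR-106b-5p to miR-93-5p averaged -2.43 ± 1.28 and -1.13 ± 1.24, a difference of -1.30 (exact p = 0.106, adjusted 0.212). miR-19b-3p to miR-19a-3p averaged 0.92 ± 0.57 and 1.49 ± 0.76, a difference of -0.57 (exact p = 0.175, adjusted 0.234). miR-106a-5p to miR-17-5p, which differ by 1 base, averaged -3.63 ± 2.10 and -2.75 ± 1.49, a difference of -0.89 (exact p = 0.40, adjusted 0.40). miR-106a-5p had a count of 0 in 3 T cell and 2 medium libraries, where this ratio rests on the added count. With 0.5 counts added the means were -4.16 and -3.10. Without both T cell replicate 2 and medium replicate 3 the difference was -0.04. None of these 4 differences passed the threshold of 0.05 after adjustment, and the smallest p that the design allows is 0.00216.

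Each hairpin was next described by its 2 arms, a comparison chosen after the values were seen and given without a test. In most tissues 1 arm, the guide, is kept and the other is degraded. miR-93-5p exceeded miR-93-3p in 12 of 12 libraries, with mean counts of 378 and 44.8, and miR-18a-5p exceeded miR-18a-3p in 12 of 12 (66.5 and 18.6). The relatives showed wider gaps, with mean counts of 504 for miR-25-3p and 26.7 for miR-25-5p. miR-20a-5p and miR-20a-3p were nearly equal (36.4 and 33.7), as were miR-19a-3p and miR-19a-5p (18.6 and 20.3) and miR-20b-5p and miR-20b-3p (18 and 21.1). These means pool both groups. The log2 ratio of miR-20a-5p to miR-20a-3p averaged 0.77 ± 0.72 in the T cell group and -0.44 ± 1.10 in the medium group (SD, n = 6 per group). Single libraries overlapped, from -0.17 to 1.86 and from -1.83 to 0.74. Group means lay apart likewise for miR-18a (2.76 ± 1.64 and 1.35 ± 0.64), miR-93 (3.35 ± 1.18 and 2.23 ± 0.91) and miR-17 (2.12 ± 1.86 and 1.09 ± 0.66), again with overlapping libraries. For miR-18a and miR-17 the highest T cell values, 5.78 and 5.88, came from replicate 2, where the other arm had a count of 0. In that library a 0 says only fewer than 10 counts, so the T cell means of miR-18a and miR-17 are uncertain to that extent. Group means lay the other way for miR-106b, miR-106a, miR-363, miR-18b and miR-19b-2. The order was inverted for 2 hairpins of the X chromosome, where miR-363-5p exceeded miR-363-3p in 12 of 12 libraries (38.1 and 4.58) and miR-106a-3p exceeded miR-106a-5p in 10 of 12 (18.8 and 6.17). In the same cluster miR-18b-5p exceeded miR-18b-3p in 11 of 12 libraries (39.7 and 20.8). miR-363-3p and miR-106a-5p lay below the count of the median feature, which was 15 to 30 per library. Both arms of miR-19a and miR-20b and also miR-106a-3p had mean counts within that range. How far such counts stand above background was not tested.

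**Figure D3:**
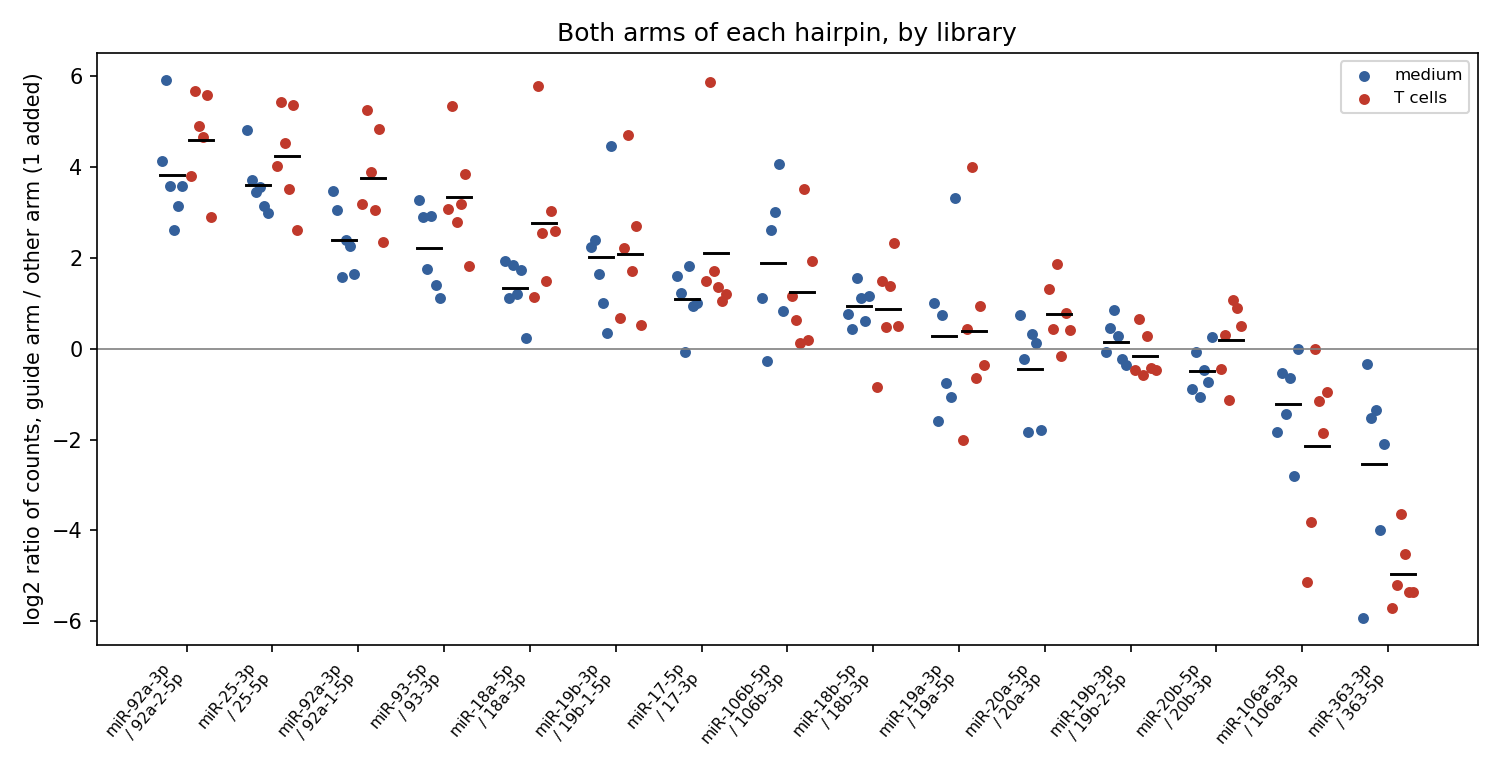
Log2 ratio of counts of the listed arm to the other arm of its hairpin, with 1 count added, for each library of the medium group (blue) and the T cell group (red), with black bars at group means and hairpins ordered by their mean. The guides miR-92a-3p, miR-25-3p and miR-93-5p stand above 0 in all 12 libraries, several members scatter around 0, and miR-363-3p lies below 0 in all 12.

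How far the members stood out from the bulk of a library differed accordingly. The median percentile over the 12 libraries was 98.5 for miR-93-5p, 94.2 for miR-106b-5p and 90.5 for miR-18a-5p. It was 78.3 for miR-17-5p, 76.6 for miR-19b-3p and 72.1 for miR-20a-5p. It was 37.7 for miR-20b-5p, 30.7 for miR-19a-3p, 14.3 for miR-106a-5p and 9.61 for miR-363-3p. In medium replicate 6, the library with the fewest counts, miR-20a-5p was at percentile 23.1 with 6 counts.

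Outside the clusters, 4 other measured miRNAs carried the seed of a member, among the 1617 of 1885 miRNA rows with a sequence in RefSeq. The 3 of highest mean count were miR-92b-3p (log2 fold change 0.12), miR-6383, which has the miR-17 seed (-0.64), and miR-32-5p (-0.44), and none of the 3 passed the edgeR test. Of 85 features outside the clusters with a mean count of at least 100, those in steadiest ratio to the summed miR-17 seed members over the 12 libraries were miR-30d-5p (SD of the log2 ratio 0.24), miR-223-3p (0.27), miR-140-3p (0.29), miR-30e-5p (0.33) and miR-30a-5p (0.33). The median SD over the 85 was 0.79. The sum was led by miR-93-5p, and the 5 features had edgeR log2 fold changes of 1.01 to 1.16.

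Marker miRNAs of cell types that shed bEVs were set beside miR-20a-5p and miR-93-5p. The 4 platelet and myeloid markers were miR-223-3p, miR-223-5p, miR-21a-5p and miR-191-5p. They summed to 17129 to 50203 CPM in the T cell group and 7498 to 18377 CPM in the medium group. DESeq2 called 3 of the 4 higher, against 7.13% of all features with an adjusted p. The 4 endothelial markers summed to 9007 to 33515 CPM and 3781 to 26910 CPM (1 of 4 called higher by DESeq2), and the 4 erythroid markers to 5415 to 48831 CPM and 5375 to 23124 CPM (0 of 4). The 8 miRNAs listed as T lymphocyte markers summed to 12718 to 29380 CPM in the T cell group and 6698 to 22011 CPM in the medium group (1 of 8). They include the abundant miR-142a-3p, with a mean count of 1026. Since Rag1-/- mice without a transfer lack mature T cells, this sum does not measure T cells alone. The 3 liver markers summed to 2471 to 3892 CPM and 1394 to 2855 CPM (0 of 3), and the 3 muscle markers to 624 to 1634 CPM and 639 to 3213 CPM (0 of 3). No marker on these lists was at 0 in all libraries. The share of 7.13% was not matched for abundance, and the marker sums were taken under TMM scaling only. The part of the markers in the differences of the members was not tested.

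The direction of the smaller differences depended on how libraries were scaled. With libraries scaled to their total counts, the median log2 fold change of all features moved from -0.05 to -0.38, and with the median ratio of abundant features to -0.55. miR-17-5p then went to -0.11 and -0.25, miR-18a-5p to -0.13 and -0.30, and miR-20b-5p to -0.16 with the abundant features, while miR-20a-5p stayed at 0.61 and 0.46 and miR-93-5p at 0.64 and 0.52. Relative to the median of all features under the same scaling, miR-20a-5p lay 0.99 to 1.02 higher and miR-93-5p 1.02 to 1.15 higher under all 5 scalings, and 7 of the 8 tested members lay above that median under each. A change of scaling moves all features nearly alike, so these distances were bound to stay and are no separate check. miR-106b-5p lay at -0.29 to -0.24 against that median. Its own log2 fold change went from -0.31 to -0.68 by total counts and -0.84 by abundant features, where its unadjusted edgeR p was 0.0438 and 0.0220 (adjusted p = 0.474 and 0.261). miR-19a-3p went from 0.56 to 0.15 and 0.0071.

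**Figure D4:**
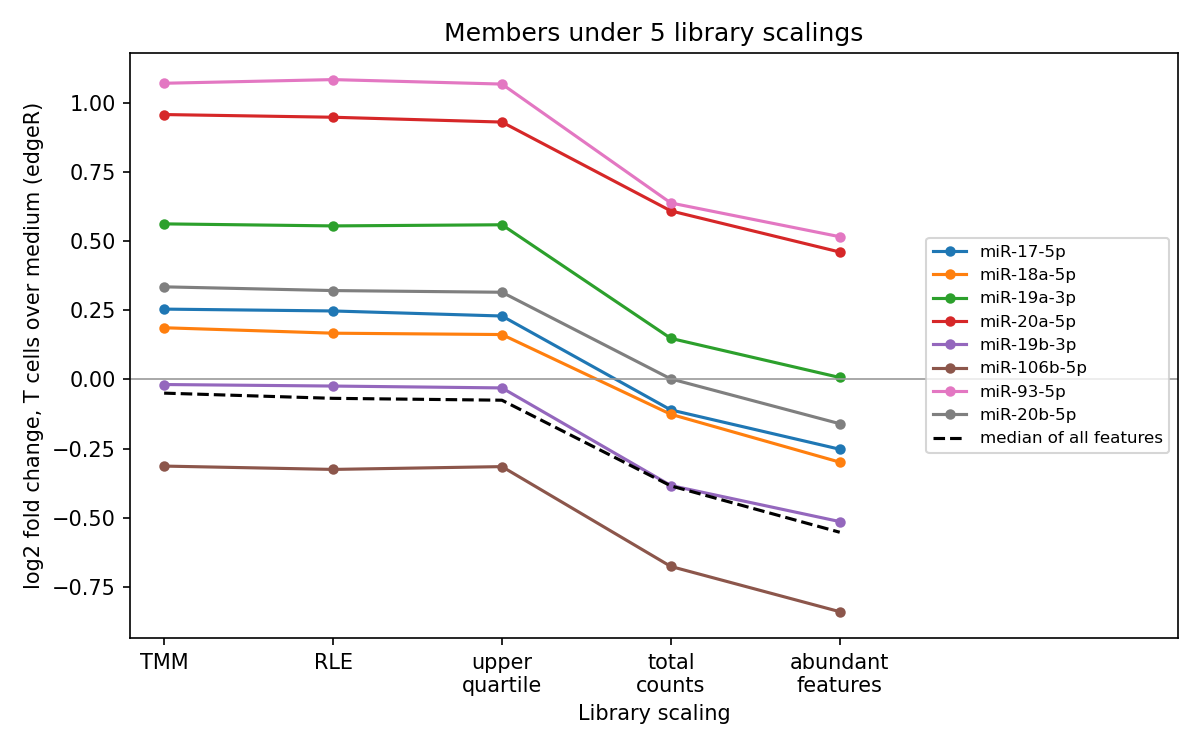
Log2 fold change, T cells over medium, of the 8 tested members under 5 library scalings in edgeR, with the median of all tested features as a dashed line. All lines drop together by total counts and by abundant features, and miR-17-5p, miR-18a-5p and miR-20b-5p end below 0 while miR-20a-5p and miR-93-5p stay above 0.4.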

How the data were processed

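The authors sequenced bEV small RNA libraries made with a Qiagen kit that adds unique molecular identifiers (UMIs), used bcl2fastq 2.18.0.12 for base calls (from the submitters' processing notes), and trimmed and aligned reads to miRBase 21 and mm10 with Qiagen's GeneGlobe software. As deposited, values are raw counts for 1885 miRNAs and 110 piRNAs in 12 libraries, 48997 to 130106 counts each. It does not say whether they are reads or UMIs.

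Features kept by filterByExpr (1720) were scaled by TMM and tested with edgeR 4.0.16 (quasi-likelihood, R 4.3.3), T cells against medium without covariates, with p-values adjusted by Benjamini-Hochberg over the whole tested table (threshold 0.05). DESeq2 1.42.0 and limma 3.58.1 (voom) were run beside it, and permutation tests in scipy 1.17.1. The procedures were tested on simulated data. Alternatives changed the scaling, the filter (none, or 50 counts or more in 6 libraries or more), the features, the replicate block and each library in turn.

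The members, lists and tests were chosen with earlier results of these data known. By rule the text names all 10 members, the 3 relative guides, the 4 other arms and 3 seed mates of highest mean count, and the 5 features in steadiest ratio to the summed miR-17 seed members. Sequences and coordinates are those of RefSeq and GENCODE on GRCm38. No 2 libraries of a group agreed within counting noise. The labels give no sequencing batch.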

Additional observations from a re-analysis of the deposited data

Results flagged for a closer look

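In 40 groups of 6 values examined for a single sample far from the others (members, their sums and their ratios), 2 were found, and chance alone flags about 1 in 20 groups. Medium replicate 3 had 339 CPM of miR-19a-3p, against 72.6 to 167 CPM in the other 5 medium libraries. T cell replicate 3 had 41.2 CPM of miR-363-3p, from 3 counts, against 0 in the other 5 T cell libraries. With the other 5 at 0, any count in replicate 3 would have been flagged, so the rate of 1 in 20 does not apply to this group.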

How the results depend on the processing

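edgeR called 0 of the members under all its alternatives and limma voom 0, while DESeq2 called 1 (miR-20a-5p, log2 fold change 0.94). DESeq2 called 0 members without its independent filtering and Cook's cutoff, 0 without both T cell replicate 2 and medium replicate 3, and 1 to 2 in the 7 fits without 1 library in which miR-20a-5p had an adjusted p. The edgeR and voom adjusted p of miR-20a-5p was 0.154 to 0.641 over 22 alternatives, and at a minimum of 50 counts in 6 libraries it was not tested. Total counts and abundant-feature scaling, which shift all features down, turned the median of the members to -0.054 and -0.21, miR-17-5p to -0.11 and -0.25, miR-18a-5p to -0.13 and -0.30, and, by abundant features only, miR-20b-5p to -0.16. They moved the summed miR-17-92 members to 0.080 and -0.083 (log2 ratio of means). The miR-17 seed group without miR-93-5p went to -0.26 and -0.42, and the miR-19 seed group to -0.22 and -0.35. Without both doubted libraries miR-17-5p was -0.040. With 1 library left out, miR-19b-3p ran from -0.22 to 0.072 and crossed 0 in 6 of 12 fits. The 4 ratios kept their direction and their side of the threshold throughout. The replicate numbers do not pair the libraries (same-number correlations from -0.14 to 0.09, and 2 of 12 libraries correlated best with their own number). With the replicate block edgeR called 0 members, at a log2 fold change of 1.02 for miR-20a-5p and 1.00 for miR-93-5p, and DESeq2 called 1. Depth limits the low members most, since at 20 to 40 counts per library counting error alone is a sizable part of the spread.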
